A study of Mus musculus with 1 sample.

Results

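Fc receptors for IgG and the proteins that carry their signals were followed in single alveolar macrophages (AMs), the macrophages that live in the airspaces of the lung. The 8 genes were chosen by name for their roles, and all 8 are listed among the 11918 genes of the data. They are the activating receptors Fcgr1, Fcgr3 and Fcgr4, the inhibitory receptor Fcgr2b, the adaptors Fcer1g and Tyrobp, the kinase Lyn and the phosphatase Inpp5d. The AMs came from 1 adult WT mouse, aged 8 to 12 weeks, that carried floxed Hdac3 alleles (Hdac3 fl/fl) and no Cre. Its strain was FVB/NJ crossed back onto C57BL/6 for 10 generations. Cells positive for CD45, CD11c and SiglecF were sorted, 5000 were loaded on the 10x Genomics 3' assay, and transcripts were counted by unique molecular identifiers (UMIs), which count each captured molecule once. The study set this library beside AMs that lack HDAC3, and that library was not analysed here. With 1 library no difference between mice can be tested, so intervals in brackets are exact 95% intervals that cover counting error only.

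Activating Fc gamma receptors bind IgG on coated particles and signal through a partner adaptor. Fcer1g encodes the common gamma chain that they need at the cell surface, and Tyrobp encodes DAP12, a related adaptor used by other receptors of myeloid cells. Both adaptors carry an immunoreceptor tyrosine-based activation motif (ITAM), which Src family kinases such as Lyn phosphorylate and which then recruits the kinase Syk. Fcgr2b carries an inhibitory motif (ITIM) in its own tail. Once phosphorylated by Lyn, it recruits the lipid phosphatase SHIP1, encoded by Inpp5d, and so opposes the activating receptors. In AMs these receptors take up IgG-coated material from the airspaces.

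The codons of these motifs are shown because they set the activating adaptors apart from the inhibitory receptor. They were read from the principal coding sequences of GENCODE release M21 (GRCm38), from 5′ to 3′ on the coding strand. Capitals mark the codons of the tyrosines and of the leucines or isoleucines around them.
Fcer1g ITAM: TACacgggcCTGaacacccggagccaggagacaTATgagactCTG
Tyrobp ITAM: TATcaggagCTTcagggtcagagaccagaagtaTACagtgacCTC
Fcgr2b ITIM: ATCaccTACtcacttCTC
The Fcer1g motif takes codons 65 to 79 of 86 and lies at chr1:171229889-171230072 on the minus strand, in exons 4 and 5 with an intron between them. The Tyrobp motif takes codons 92 to 106 of 114 and lies at chr7:30415670-30417382 on the plus strand, also in exons 4 and 5. The Fcgr2b motif takes codons 317 to 322 of 340 and lies at chr1:170961071-170961088 on the minus strand, in exon 8. The ITAM was searched as a tyrosine codon and, after 2 codons, one of leucine or isoleucine, repeated after a gap of 6 to 8 codons. Of the 8 coding sequences Fcer1g and Tyrobp alone held this pattern, which 2.85% of 21511 mouse coding sequences hold. The short ITIM pattern is much less specific. It occurs in 49.0% of coding sequences and also in those of Fcgr1, Fcgr4, Fcer1g, Tyrobp and Lyn, so its presence in a sequence alone does not mark an ITIM.

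The receptors Fcgr2b, Fcgr3 and Fcgr4 and the adaptor Fcer1g lie side by side. Fcgr2b (chr1:170958617-170976547, minus strand), Fcgr4 (chr1:171018920-171029761, plus strand), Fcgr3 (chr1:171051174-171064935, minus strand) and Fcer1g (chr1:171229572-171234365, minus strand) fall within 276 kb that hold 11 protein-coding genes. Fcgr1 is at chr3:96282909-96293969 (minus strand), Inpp5d at chr1:87620312-87720507 (plus), Lyn at chr4:3678115-3813122 (plus) and Tyrobp at chr7:30413760-30417585 (plus). The coding sequences of Fcgr2b and Fcgr3 are 87.1% identical over 785 aligned bases, against 64.0% to 68.7% for the other pairs of receptors. Their longest identical run, printed to show how close the opposing receptors are in the part that faces IgG, is the following.
Fcgr2b and Fcgr3: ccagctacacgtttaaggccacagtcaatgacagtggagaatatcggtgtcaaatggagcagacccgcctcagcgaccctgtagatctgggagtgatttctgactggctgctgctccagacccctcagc
The run of 129 bases covers coding bases 278 to 406 of Fcgr2b (chr1:170966674-170968081) and 263 to 391 of Fcgr3 (chr1:171054167-171057792), in exons 3 and 4 of each. The assay reads the 3' end of transcripts with reads of 98 bases. For each of the 8 genes, 0% of the 98-base sequences within 300 bases of the transcript end occur in a transcript of another gene, so reads there can be told apart. Over whole transcripts the share was 2.95% for Fcgr3, 2.33% for Fcgr2b and 9.46% for Lyn, which shares sequence with Gm11787. These are shares of sequence and not of reads, and how many UMIs came from the shared stretches was not measured. Fcgr2b and Lyn also overlap annotated genes on the opposite strand. On the same strand Fcgr3 overlaps Mir6546 and Fcgr4 overlaps Gm26110.

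The 2055 cells held 7222978 UMIs together (median 3278 per cell, range 1143 to 8603), and a count of 0 in the median cell allows a share of up to 0.0915%. Mitochondrial genes made up 3.21% of a typical cell (median), and 384 cells (18.7%) exceeded 5%, the limit that the methods describe. All 14 AM markers were listed, and Chil3 was found in 100% of the cells, Ear2 in 98.8%, Lpl in 97.6% and Siglecf in 41.4%. None of 5 T cell markers and none of 5 mast cell or basophil markers was listed, and the listed markers of B cells, NK cells, eosinophils, dendritic cells and interstitial macrophages summed to 6 to 35 UMIs each. Monocyte markers had 146 UMIs in 6.62% of the cells, and plasma cell markers had 1016 UMIs, of which 946 were in 1 cell. S100a8, a neutrophil gene, was found in 10.1% of the cells, and Cxcr2, the other listed neutrophil marker, in 0.389%. All 5 epithelial markers were listed. Sftpc, the surfactant protein of alveolar type II cells, was found in 6.86% of the cells, Scgb1a1 in 5.50%, Sftpa1 in 1.41% and Sftpb in 0.389%. Epcam, in 58.1%, stood far above these. The part of free RNA or of other cells in the shares given below was not tested.

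The adaptors were present at a far higher level than the receptors. Fcer1g had 24613 UMIs, or 34.1 per 10000 UMIs [33.7 to 34.5], and was found in 99.6% of the cells [99.2 to 99.8], at a median of 10 UMIs in each cell and a range from 0 to 48. Tyrobp had 18013 UMIs, or 24.9 per 10000 [24.6 to 25.3], and was found in 98.6% of the cells [98.0 to 99.1], with a median of 8 per cell and a range from 0 to 35. Only 8 cells had no UMI of Fcer1g and 29 had none of Tyrobp, and a single cell lacked both. Fcer1g ranked 22nd and Tyrobp 46th of all genes by level, where the median gene had 0.148 UMIs per 10000. The ratio of Fcer1g to Tyrobp UMIs was 1.37 [1.34 to 1.39]. Because each UMI stands for a molecule caught at its 3' end, levels were not divided by the length of the transcript, and differences in capture between genes cannot be told apart from differences in level.

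Among the activating receptors, Fcgr3, a receptor of low affinity, was the most frequent. It had 1444 UMIs, or 2.00 per 10000 [1.90 to 2.11], in 46.3% of the cells [44.1 to 48.5], and from 0 to 9 per cell. Fcgr4, which binds only some IgG subclasses, had 884 UMIs, or 1.22 per 10000 [1.14 to 1.31], in 31.7% of the cells [29.7 to 33.8], and from 0 to 5 per cell. Fcgr1, which encodes the high-affinity receptor CD64, had 168 UMIs, or 0.233 per 10000 [0.199 to 0.271], in 7.40% of the cells [6.30 to 8.61], and from 0 to 6 per cell. The intervals of these levels do not overlap, so the order Fcgr3, Fcgr4, Fcgr1 is larger than the counting error. The share of cells with Fcgr1 was no higher than that with S100a8 and close to that with Sftpc, and whether its UMIs came from the cells that hold them was not tested. At least 2 of the activating genes were found in 412 cells (20.0%), and all 4 receptor genes in 24 (1.17%).

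The inhibitory receptor Fcgr2b was the Fc gamma receptor gene with the highest level. It had 1726 UMIs, or 2.39 per 10000 [2.28 to 2.51], in 51.1% of the cells [48.9 to 53.3], with a median of 1 and a range from 0 to 9. Per UMI of Fcgr3 there were 1.195 of Fcgr2b [1.11 to 1.28], per UMI of Fcgr4 1.95 [1.80 to 2.12], and per UMI of Fcgr1 10.3 [8.76 to 12.1]. Fcgr2b thus exceeded each activating receptor alone, but not their sum.

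Lyn, the kinase, was at 2.23 per 10000 [2.12 to 2.34] with 1608 UMIs in 52.3% of the cells [50.1 to 54.4], and from 0 to 7 per cell. Inpp5d, the phosphatase, was at 0.623 per 10000 [0.567 to 0.683] with 450 UMIs in 19.5% of the cells [17.8 to 21.2], and from 0 to 3 per cell. There were 3.57 UMIs of Lyn [3.22 to 3.98] for each of Inpp5d. The levels of Fcgr2b and Lyn have overlapping intervals, and those of Lyn and Fcgr3 do not. The inhibitory receptor, the kinase and the phosphatase were all found in 131 cells (6.37%), while 828 cells (40.3%) held Fcgr2b without a UMI of Inpp5d, which at this depth does not show that they lack it.

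**Figure D1:**
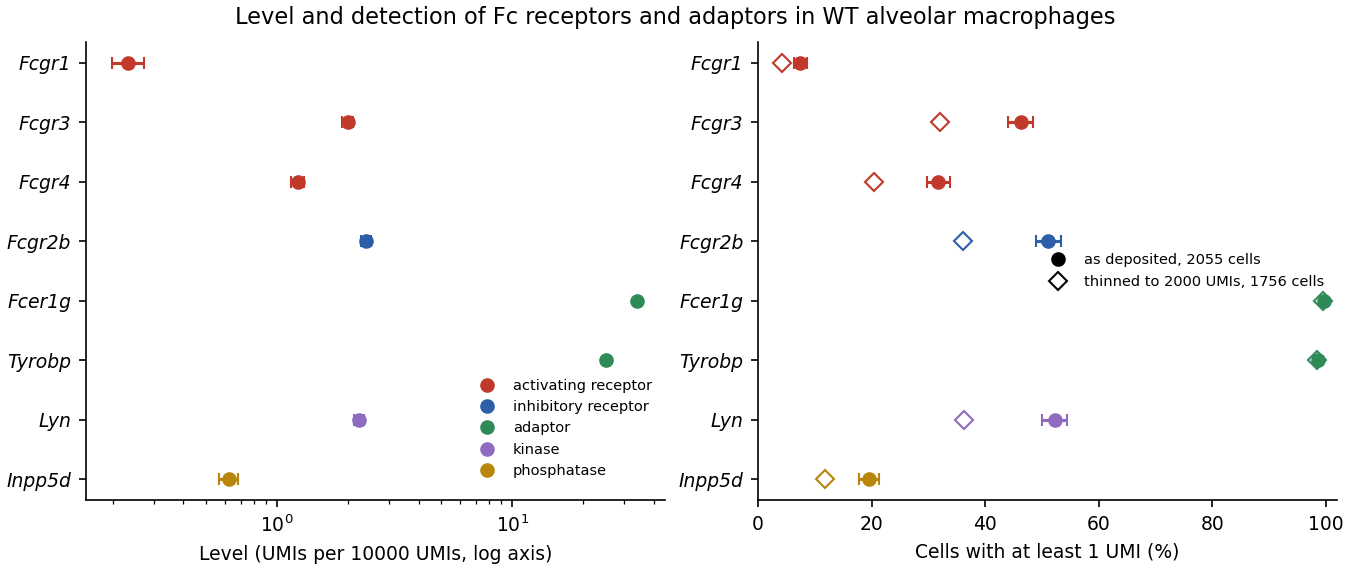
Level of the 8 genes in UMIs per 10000 UMIs on a log axis (left) and share of cells with at least 1 UMI (right), with exact 95% intervals for counting error; open diamonds give the share expected after thinning every cell to 2000 UMIs. Fcer1g (34.1) and Tyrobp (24.9) stand far to the right of the receptors, which lie between 0.233 and 2.39.

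Detection of the weaker genes depended on depth. After thinning to 2000 UMIs per cell, which kept 1756 cells and left out 299, the expected share was 36.1% for Fcgr2b, 32.1% for Fcgr3, 20.4% for Fcgr4 and 4.19% for Fcgr1. It was 36.3% for Lyn and 11.7% for Inpp5d, and stayed at 99.4% for Fcer1g and 98.4% for Tyrobp. As deposited, 4 of the 8 genes were found in at least 50% of the cells, where 6.04% of all genes were. After thinning only the adaptors remained above that share.

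The balance of inhibitory and activating receptors was next measured. Of 4222 Fc gamma receptor UMIs, 1726 were of Fcgr2b, an inhibitory share of 40.9% [39.4 to 42.4]. The ratio of Fcgr2b to the sum of Fcgr1, Fcgr3 and Fcgr4 was 0.692 [0.650 to 0.736]. Without Fcgr4 among the activating genes the share was 51.7%, and with Fcgr3 alone it was 54.4%, so the share depends on which activating genes are counted. These alternatives were given no interval, and differences in capture between genes also enter the share, so no side of the balance is read from it. For each UMI of an activating receptor there were 9.86 of the common gamma chain Fcer1g [9.46 to 10.3]. Of the 1303 cells with an activating receptor 1301 also held Fcer1g, which was found in 99.6% of all cells, so this count shows no link between them.

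The inhibitory and activating receptors were then counted within single cells. In 694 cells (33.8%) both Fcgr2b and an activating receptor were found, in 609 (29.6%) an activating receptor alone, in 356 (17.3%) Fcgr2b alone and in 396 (19.3%) neither. Poisson counts at the library's mean levels and each cell's own depth would give 788 cells with both and 356 with neither, and the difference was not tested. The median depth was 3975.5 UMIs in cells with both and 2520.5 in cells with neither, so these classes follow depth as well as receptor level. Among the 1303 cells with an activating UMI, the ratio of inhibitory to activating UMIs had a median of 0.25, quartiles of 0 and 1, and a highest value of 6. The ratio was 0 in 609 cells, between 0 and 1 in 267, exactly 1 in 252, and above 1 in 175 (13.4%). These steps are coarse because a cell held a median of 2 receptor UMIs and at most 11.

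**Figure D2:**
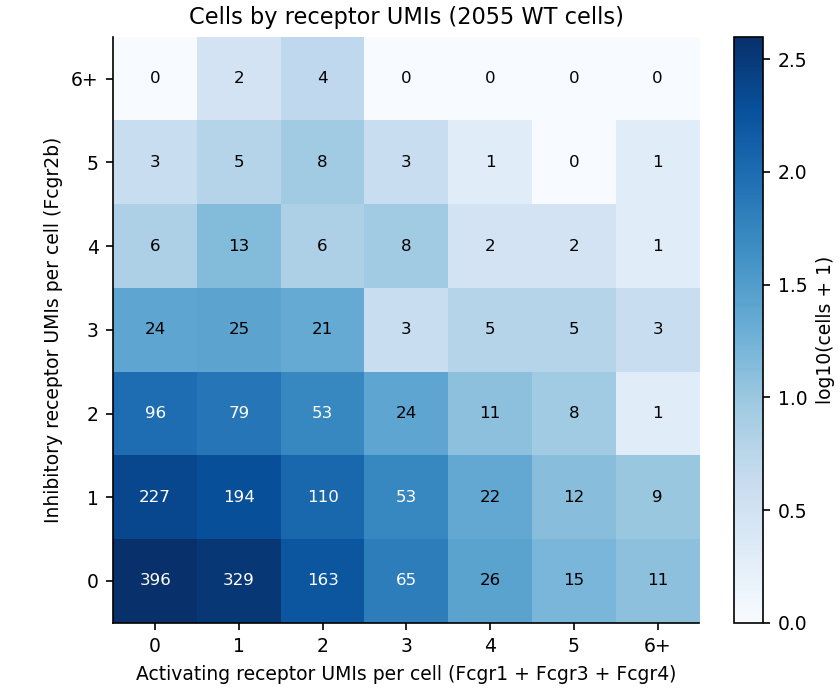
Number of cells with each count of inhibitory (vertical axis, Fcgr2b) and activating (horizontal axis, Fcgr1, Fcgr3 and Fcgr4 summed) receptor UMIs, shaded by log10 of the number of cells plus 1. The cells spread over the grid without a separate group, with 396 at no UMI of either kind and 194 at 1 of each.

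In the 650 cells with at least 3 receptor UMIs the median inhibitory share was 33.3%. In 33 of them all receptor UMIs were of Fcgr2b and in 117 all were activating. The variance of the inhibitory UMIs among these cells was 1.30 times that of a binomial with their own pooled share. Over all cells with a receptor UMI it was 1.16 times. A value of 1 is what counting alone gives. Variance over the Poisson value at each cell's depth was 1.27 for Fcgr2b, 1.15 for Fcgr3, 1.14 for Fcgr1, 1.08 for Fcgr4, 1.06 for Inpp5d and 1.05 for Lyn, against a median of 1.05 and a 90th percentile of 1.19 over the 6147 genes with at least 100 UMIs. Fcgr2b was above that percentile and the other receptors were below it. The abundant adaptors were higher, at 1.99 for Fcer1g and 1.69 for Tyrobp. That percentile pools genes of all levels. Whether Fcgr2b or the adaptors vary more than other genes of their level was not tested.

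The inhibitory share differed with depth. When the cells were split by depth into 4 groups of 513 or 514, the share from the shallowest to the deepest group was 46.7% [42.4 to 50.9], 41.0% [37.6 to 44.4], 42.5% [39.5 to 45.4] and 38.0% [35.7 to 40.3]. The intervals of the shallowest and the deepest group do not overlap. Over the same groups the level of Fcgr2b went from 2.70 to 2.29 per 10000, that of Fcgr4 from 0.972 to 1.43, and that of Fcer1g rose at each step, from 28.4 to 31.7, 33.9 and 37.3. Fcgr3 stayed between 1.92 and 2.05. The share of cells with any of the receptors went from 63.4% to 93.6%. Whether deeper cells are larger cells or better captured ones cannot be told apart here.

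**Figure D3:**
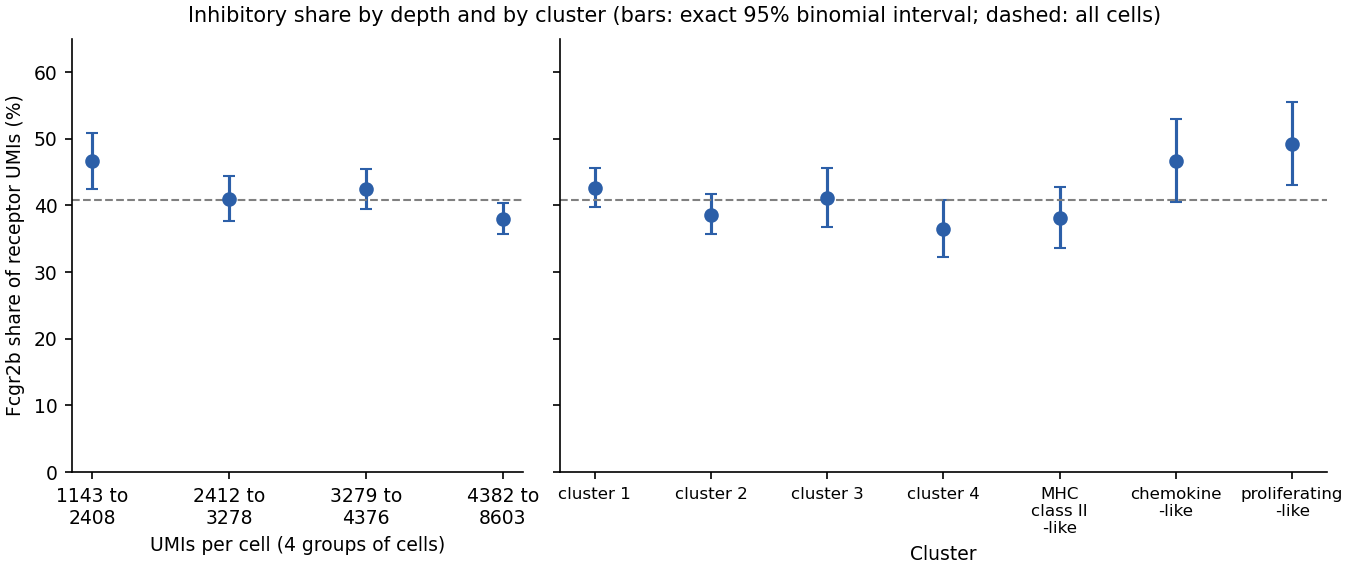
Share of Fc gamma receptor UMIs that were of Fcgr2b, by depth group (left) and by cluster (right), with exact 95% binomial intervals; the dashed line is the share over all cells, 40.9%. The share was 46.7% in the shallowest and 38.0% in the deepest group, and from 36.5% to 49.2% across clusters.

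Levels were then compared across clusters of AMs, which were built without the 8 genes so that these played no part in them. Of 7 clusters, 3 could be named from known markers. The proliferating-like cluster (110 cells) was led by genes such as Top2a and Mki67, the MHC class II-like cluster (183 cells) by H2-Eb1, H2-Aa and Cd74, and the chemokine-like cluster (128 cells) by Cxcl1, Tnf and Cxcl3. Clusters 1 (618 cells; led by Hspa1b, Apoe and Rhob), 2 (515; Ifi27l2a, S100a6 and Chchd4), 3 (268; Rpgrip1, Slc39a1 and Abhd2) and 4 (233; Txnip, Clec2d and Lars2) stayed unnamed. A difference of at least 1.5-fold from all other cells, in either direction, was counted. Of the 56 pairs of a gene and a cluster, 3 passed this size, 1 higher and 2 lower. Over the 6147 genes with at least 100 UMIs, 11.5% of all pairs did, 4.1% higher and 7.43% lower. The count for the 8 genes is under that background and is not read as a result about them.

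The proliferating-like cluster showed the clearest difference, in Tyrobp. Its level was 14.8 per 10000 [13.7 to 16.0] there and 25.7 in all other cells, a ratio of 0.578 [0.535 to 0.623]. In UMIs per cell it was 6.45 against 8.90, although the proliferating-like cells were deeper, with a median of 4171.5 UMIs. After thinning, the share of cells with Tyrobp was 93.5% against 98.7%. Of all genes 10.8% were at least 1.5-fold lower in this cluster, but of the 92 genes with at least 10000 UMIs, a limit that Tyrobp passes, 4.35% were. These were 4 genes, Tyrobp, Ear2 (0.606), Ctsd (0.626) and Malat1 (0.653). Ear2 was among the variable genes used to build the clusters. Tyrobp was not, and had the lowest ratio. Within the deepest of the 4 depth groups alone, with 49 proliferating-like cells and 464 others, the ratio was 0.558.

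Fcer1g differed less in these cells. Its level was 26.5 per 10000 against 34.6, a ratio of 0.767 [0.724 to 0.812], and its UMIs per cell were 11.6 against 12.0. The ratio of Fcer1g to Tyrobp UMIs was accordingly 1.79 [1.63 to 1.97] in the proliferating-like cluster and from 1.30 to 1.37 in the other 6. Among the receptors the differences were smaller or less certain. Fcgr2b was at 2.67 per 10000 against 2.37, a ratio of 1.13 [0.934 to 1.35], Fcgr3 at 1.63 against 2.03 (0.804 [0.631 to 1.01]) and Fcgr4 at 0.918 against 1.25 (0.737 [0.532 to 0.999]). The inhibitory share was 49.2% [43.0 to 55.5], the highest of the 7 clusters, with an interval that overlaps those of clusters 1 and 3 and of the chemokine-like cluster.

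Fcgr1 gave both other pairs that passed. It was at 0.340 per 10000 in cluster 2 against 0.196 in the other cells, a ratio of 1.73 [1.25 to 2.39] from 62 UMIs, where 0.813% of all genes were at least 1.5-fold higher. In the chemokine-like cluster it had 5 UMIs and a ratio of 0.451 [0.145 to 1.07], where 13.7% of all genes were at least 1.5-fold lower, and the interval includes 1. In cluster 4 both adaptors, Fcgr3 and Fcgr4 were higher without reaching 1.5-fold, and Fcgr1 was not. Fcgr3 was at a ratio of 1.40 [1.204 to 1.63], Fcgr4 at 1.31 [1.07 to 1.597], Tyrobp at 1.18 [1.13 to 1.23] and Fcer1g at 1.12 [1.08 to 1.17], while Fcgr2b was at 1.07 [0.919 to 1.25] and Fcgr1 at 0.790 [0.422 to 1.37]. Cluster 4 also had the lowest inhibitory share, 36.5% [32.3 to 40.8], and the highest median mitochondrial share, 3.88%, whose part in these ratios was not tested. In the MHC class II-like cluster Fcgr3 was at 1.28 [1.09 to 1.505] and Fcgr2b at 1.07 [0.909 to 1.25]. Lyn and Inpp5d had intervals that include 1 in all 7 clusters.

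**Figure D4:**
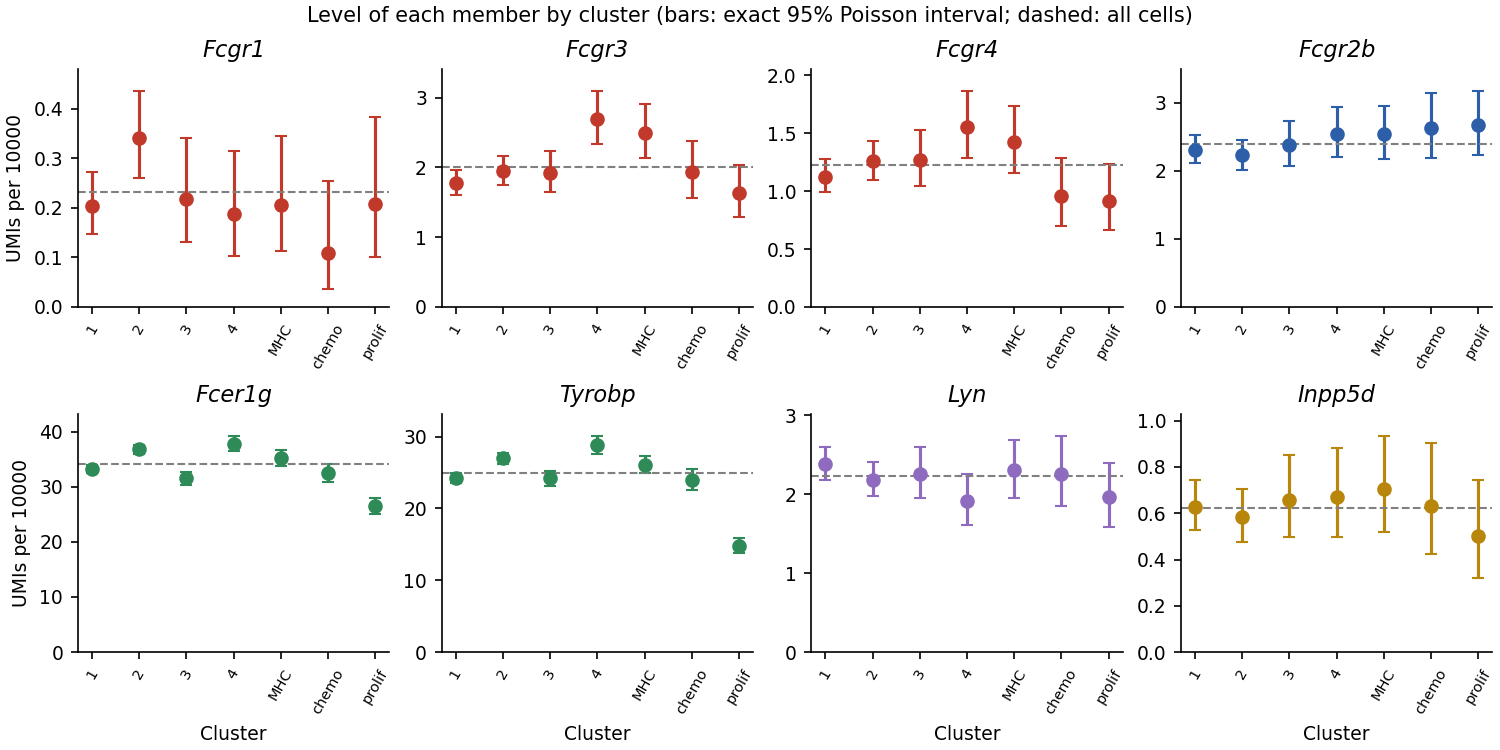
Level of each gene in UMIs per 10000 UMIs in the 7 clusters (1 to 4 unnamed; MHC, MHC class II-like; chemo, chemokine-like; prolif, proliferating-like), with exact 95% Poisson intervals; the dashed line is the level over all cells. Tyrobp is at 14.8 in the proliferating-like cluster and from 24.0 to 28.8 in the others.

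Correlations across the 2055 cells were taken as Pearson's r of the deposited scaled score, in which depth and mitochondrial share had been regressed out. All cells share 1 library, and with counts this sparse a weak r is no finding, so no p is given. Of the 28 pairs among the 8 genes, 22 lay within 0.05 of 0, with a median of 0.00968. Over all pairs of the 4023 genes found in at least 10% of the cells the median was 0.00135 and the 99th percentile 0.0623. Fcer1g and Tyrobp stood apart with r = 0.270. Only they and the pair of Fcgr3 and Tyrobp (0.115) were above 0.1, a value that 0.129% of all pairs exceed. With the adaptors such values were less rare, as 2.42% of 4016 other genes reached 0.1 with Fcer1g and 1.87% with Tyrobp. Without the proliferating-like cells r of Fcer1g and Tyrobp was 0.245, and within the 4 depth groups it was 0.208, 0.302, 0.313 and 0.361.

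Fcgr3 was at 0.0982 with Fcer1g, and Fcgr4 at 0.0583 with Fcer1g and 0.0605 with Tyrobp. Fcgr2b, which signals without an adaptor, was at 0.0349 with Fcer1g and -0.00347 with Tyrobp. Between receptors, r was 0.0143 for Fcgr2b and Fcgr3, -0.0394 for Fcgr2b and Fcgr4, 0.0120 for Fcgr3 and Fcgr4, and 0.0548 for Fcgr1 and Fcgr4. Fcgr2b and Inpp5d were at 0.0304, Fcgr2b and Lyn at 0.00147, and Lyn and Inpp5d at -0.0101. The values between receptors and those with Lyn or Inpp5d were all under the 99th percentile of gene pairs at large. Fcgr3 exceeded it with both adaptors, but that percentile pools genes of all levels. Set against each gene's own r with other genes, Fcgr3 with Fcer1g was above 99.8% for Fcgr3 and 97.3% for Fcer1g. With Tyrobp, Fcgr3 was above 99.9% of its own and 98.8% of those of Tyrobp. Fcgr4 was above 99.2% of its own with Fcer1g and 99.3% with Tyrobp, but above 92.6% and 93.6% of those of the adaptors. An upper percentile cannot show an opposed pattern, for which r would be negative. The lowest r of Fcgr2b with an activating gene, -0.0394 with Fcgr4, was above 5.25% of the values of Fcgr4 with other genes. It was above 4.43% of those of Fcgr2b. Whether the receptors share a pattern, or Fcgr2b and the activating genes oppose each other, was not tested.

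**Figure D5:**
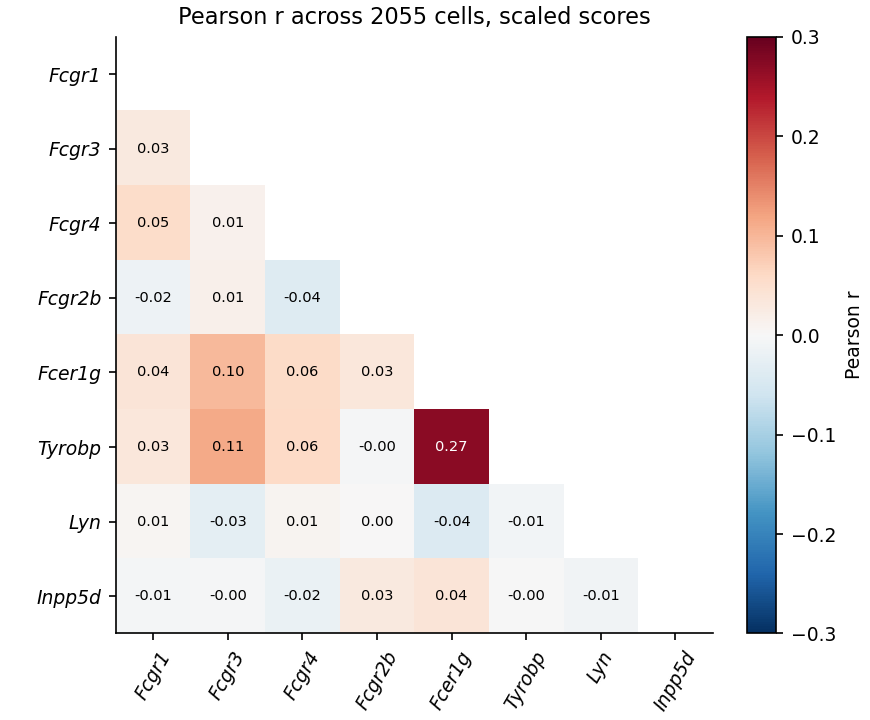
Pearson's r of the deposited scaled scores for the 28 pairs of the 8 genes across 2055 cells, on a colour scale centred at 0. The pair of Fcer1g and Tyrobp, at 0.270, is the only deeply coloured cell, and 22 of the 28 pairs lie within 0.05 of 0.

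The genes most like each member were sought among the 4016 other genes found in at least 10% of the cells. Fcer1g and Tyrobp shared the same leading genes. These were Lyz2, the lysozyme gene, at r = 0.394 with Fcer1g and 0.345 with Tyrobp, the tetraspanin gene Cd9 at 0.378 and 0.284, and Ctss, the protease cathepsin S, at 0.308 and 0.246. Fcgr3 was most like Cd9 (0.154), Lyz2 (0.138) and Chil3 (0.125), and Fcgr4 most like Ctsd (0.103), Lyz2 (0.0948) and Cd9 (0.0872). All 4 lists thus hold Lyz2 and Cd9, which are at 165 and 67.6 per 10000 and were found in every cell and are thus counted most precisely, whose part in these correlations was not tested. The leading genes of Fcgr2b were others, namely the cytokine gene Osm (0.108), Insig1 (0.0943) and Btg1 (0.0936). Lyn was most like March2 (0.0950), Slc38a1 (0.0922) and Egr2 (0.0838), and Inpp5d most like Ost4 (0.0813), Aamp (0.0753) and Aig1 (0.0721). Over the 4016 genes, r ran from -0.100 to 0.108 for Fcgr2b, from -0.0757 to 0.0950 for Lyn and from -0.0738 to 0.0813 for Inpp5d. Their highest values were thus of about the same size as their most negative ones. The leading genes of Fcgr2b, Lyn and Inpp5d are therefore not read as a result. For Fcgr4 r ran from -0.0817 to 0.103, and for Fcgr3 from -0.0954 to 0.154. Fcgr1 was found in too few cells for such a list.

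The other genes of the pathway were taken from 6 lists with 97 genes. Of these, 81 are listed and 49 were found in at least 10% of the cells, where 33.8% of all listed genes were. Of 11 other Fc receptor genes, 2 are listed. Fcgrt, the neonatal Fc receptor that recycles IgG, was at 1.73 per 10000 in 42.9% of the cells, between Fcgr4 and Fcgr3, and Trim21, a cytosolic Fc receptor, at 0.0318. The chains of the high-affinity IgE receptor other than Fcer1g, namely Fcer1a and Ms4a2, are not among the listed genes. Lyn was above its relative Fgr, which was at 0.642, and above Csk, the kinase that restrains the Src family, at 0.716. There were 3.47 UMIs of Lyn [3.12 to 3.85] for each of Fgr.

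Downstream of the ITAM, 25 of 26 genes are listed. The highest were Rac1 (6.23), which drives the actin changes of phagocytosis, and the adaptors Cbl (1.45) and Grb2 (1.15). Syk, the kinase that binds the phosphorylated ITAM, was at 0.893 in 26.8% of the cells, with 2.49 UMIs of Lyn [2.27 to 2.74] per UMI of Syk. All 11 phosphatases and inhibitory adaptors are listed, led by Ptprc (4.83), the gene of CD45, Ptpn6 (1.45), the gene of SHP-1, and Pag1 (1.42). Ptpn6 had 2.32 UMIs [2.08 to 2.60] for each of Inpp5d, and Inpp5d had 10.98 [7.96 to 15.5] for each of Inppl1, the gene of its relative SHIP2.

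Receptors that pair with Fcer1g or Tyrobp were well represented, with 19 of 23 listed and 12 in at least 10% of the cells. Clec4n, the gene of Dectin-2, which binds fungal mannans and signals through Fcer1g, was at 7.94 per 10000 in 84.5% of the cells, above each of the Fc gamma receptors. Clec4a3 (2.43) and Sirpb1c (2.37) followed at about the level of Fcgr2b. Of 18 receptors with an ITIM, 17 are listed and 13 were found in at least 10% of the cells. Sirpa, the receptor for CD47, was at 5.196, Clec4a2 at 2.23 and Lilrb4a at 2.22, so Sirpa exceeded Fcgr2b as well.

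Ratios of these partners were then taken in the named clusters. Only the members had been left out when the clusters were built. Clec4n and Clec4e were among the variable genes used to build them, so their ratios are not independent of the clustering. In the proliferating-like cluster 3 of the pairing receptors were at least 1.5-fold lower, namely Clec4n at a ratio of 0.634 [0.556 to 0.720], Clec4a3 at 0.568 [0.439 to 0.724] and Cd300ld at 0.521 [0.167 to 1.25], and Clec5a was at 1.52 [0.735 to 2.83]. Fcgrt (0.612), Fgr (0.634), Cblb (0.608), Shc1 (0.617), Card9 (0.517), Siglece (0.424) and Cd200r1 (0.638) were also lower there. Ptpn11 (1.503) and Milr1 (1.85 [1.24 to 2.69]) were higher. The intervals of Cblb, Shc1, Card9, Cd300ld, Clec5a and Ptpn11 include 1. Of all genes, 10.8% were at least 1.5-fold lower in this cluster and 13.7% at least 1.5-fold higher. Of list genes with at least 100 UMIs, 3 of 15 pairing receptors and 2 of 13 ITIM receptors were lower. Downstream of the ITAM 3 of 19 were, among Src family kinases and Csk 1 of 4, among other Fc receptors 1 of 1. None of 8 phosphatases and inhibitory adaptors was lower. The pairing, phosphatase and ITIM lists each held 1 higher gene. These small counts are not read as a result about the pathway.

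In the chemokine-like cluster the C-type lectin genes Clec4e and Clec4d, which encode the receptors Mincle and MCL that signal through Fcer1g, were at ratios of 4.89 [3.85 to 6.15] and 1.83 [1.21 to 2.68]. Clec4e was at 2.15 per 10000 there and 0.441 elsewhere, while Fcer1g itself was at a ratio of 0.951 [0.902 to 1.00]. Because Clec4e helped to build the clusters, the size of its ratio is not read as a result about the pathway. Ptprj (2.21 [1.56 to 3.07]) and Clec5a (1.75 [0.874 to 3.19]) were at least 1.5-fold higher too, as were 4.02% of all genes. Clec12a, an inhibitory lectin gene, had 4 UMIs and a ratio of 0.212 [0.0575 to 0.550], Sos1 had 3 UMIs and 0.329 [0.0671 to 0.983], and Pag1 was at 0.595 [0.423 to 0.817]. Pik3cg (0.613) and Sirpb1a (0.639) had intervals that include 1. Of all genes, 13.7% were at least 1.5-fold lower in the chemokine-like cluster, so these lower genes are not read as a result about the pathway. In the MHC class II-like cluster Siglece was at 1.86 [1.39 to 2.45], Dok2 at 1.86 [1.09 to 3.03] and Sirpb1a at 1.52 [0.936 to 2.38], where 2.28% of all genes were at least 1.5-fold higher. Milr1 was at 0.593 [0.334 to 0.982], where 7.34% were at least 1.5-fold lower.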

How the data were processed

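AMs of 1 WT library were analysed. The authors aligned reads to mm10 and counted UMIs with Cell Ranger 2.1, described filters on cells (300 to 2500 genes, at most 5% mitochondrial) and on genes, and used Seurat. The deposited values are the natural log of 1 plus UMIs per 10000 UMIs of the cell, and a scaled score, the log value regressed by the authors on UMIs and mitochondrial content and capped at 10. Against doublets the authors describe a scatter gate at the sort and the upper limit on genes, and no caller was run here.

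Whole UMIs were recovered from the log values (100% within 0.001 of a whole number). Cells were clustered on deposited scores of 500 variable genes without the 8 members, with 15 components, 30 neighbours and a resolution of 0.8 (Seurat 5.3.0, R 4.3.3). A cluster was named where at least 3 of its 10 leading genes were markers of 1 list. Shares have Clopper-Pearson intervals, levels and ratios exact Poisson and binomial ones. Detection after thinning is the hypergeometric expectation. Folds were given for genes with at least 100 UMIs. Scripts used Python 3.11.15, numpy 2.4.6, scipy 1.17.1 and pandas 2.3.3, and were tested on simulated data. Named genes are the members, the 3 highest genes of each pathway list, list genes past 1.5-fold in a named cluster, the 3 genes most like each member in at least 10% of cells, and markers; Syk, Inppl1, Ear2, Ctsd and Malat1 were added after their values were seen. A gene that this rule names is not reported here. Members and lists were chosen with earlier results of these data known. Alternatives varied depth, cells kept, correlation measure, clustering and limits.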

Additional observations from a re-analysis of the deposited data

How the results depend on the processing

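With a single library, nothing here measures the spread between mice, and depth limits the 6 weaker genes. Requiring at least 2 UMIs left 2 genes in at least 50% of the cells in place of 4, as did thinning to 2000 UMIs. The inhibitory share was 51.7% without Fcgr4 and 54.4% with Fcgr3 alone, and from 40.8% to 41.1% under the other alternatives. For Fcer1g and Tyrobp, Spearman's rho was 0.337, and r was 0.208 in the shallowest and 0.361 in the deepest of 4 depth groups; these groups, the cells without the proliferating-like cluster and the limit of 10000 UMIs were chosen after seeing the data. With no limit on UMIs 34.5% of all gene and cluster pairs passed 1.5-fold, and with at least 10000 UMIs 1.86% did. At a limit of 20% of cells 31 pathway genes were counted. Gene and cluster pairs past 1.5-fold numbered 2 to 4 under other clustering settings. With 20 components the ratios in proliferating-like cells were 0.644 for Tyrobp and 1.67 in place of 0.891 for Fcgr1, which changed direction and passed 1.5-fold. In all, 8 of 128 ratios and 25 of 201 correlations changed direction; the main values of these correlations were at most 0.0415 in size. No paired analysis was possible because there is 1 library and no result comes from a test.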
